A study of Mus musculus with 6 samples.

Results

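In all, 10 genes of blood clotting and clot breakdown that macrophages can express were followed in peritoneal macrophages (PMs) from lupus-diseased and control mice. These were the clotting factor genes F5, F7, F10 and F13a1, the thrombospondin gene Thbs1, the anticoagulant genes Tfpi and Thbd, and the fibrinolysis genes Plau, Plaur and Serpinb2. They were listed by name, and all 10 were found among the 32879 genes to which counts could be assigned. Diseased-BWF1 mice were female [NZB × NZW]F1 animals, a spontaneous lupus model, with high anti-DNA antibody titers and proteinuria, and were 31, 31 and 34 weeks old. Control mice were female [NZW × BALB/c]F1 animals of the same H2 haplotype, which do not develop lupus, and were 33, 33 and 30 weeks old. Both groups carry 1 NZW parental genome. The other parental strain (NZB or BALB/c) differs between them along with disease, and their effects cannot be told apart. PMs were sorted by flow cytometry as F4/80+ CD11b high cells without stimulation, and RNA of each of the 3 mice per group was sequenced as 1 library.

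Clotting starts when tissue factor on a cell surface binds factor VII, and this complex activates factor X. Factor X, with factor V as its cofactor, converts prothrombin to thrombin, which makes fibrin that factor XIII then cross-links. Tissue factor pathway inhibitor and thrombomodulin hold this reaction back, while urokinase, bound to its receptor, turns plasminogen into plasmin and dissolves the fibrin. Most plasma clotting factors come from the liver, but resident macrophages of the mouse peritoneal cavity are known to make factor V, factor VII and factor X themselves and to support clotting on their surface in the inflamed peritoneum.

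Total counts per library ranged from 3629901 to 5003360, and between 3376669 and 4604336 of these fell on genes, so that 3 counts of a gene corresponded to 0.652 to 0.888 CPM (here scaled to the counts on genes). Such a floor reflects counting alone. The sorted cells carried the markers of large PMs, the resident population. All 13 listed markers passed the low-count filter, and their summed level was 36400 to 38100 CPM in control mice and 36600 to 44400 CPM in diseased-BWF1 mice. Gata6, the transcription factor that defines these cells, was at 82.3 to 120 CPM in control mice and 68.5 to 112 CPM in diseased-BWF1 mice. Most of the sum was Prg4 and Itgam. Timd4 was at 1260, 1240 and 1210 CPM in control mice 1 to 3 and 961, 1000 and 605 CPM in diseased-BWF1 mice 1 to 3, and Icam2 at 429, 408 and 347 CPM and 316, 258 and 233 CPM. These genes and Adgre1 were lower, and Prg4 higher, in every diseased-BWF1 mouse than in any control mouse. Of all tested genes, 11.1% had such groups in the lower direction and 9.81% in the higher direction. None of the 13 markers was called by edgeR or DESeq2. Of these markers, 2 had an unadjusted edgeR p under 0.05, beside 1385 of all 10505 tested genes. Their part in the results for the 10 genes was not tested. Summed markers of small PMs and monocytes were at 44100 to 68500 CPM and 65300 to 70100 CPM. Nearly all of this was fibronectin (Fn1), while the monocyte genes Ly6c2 and Chil3 had at most 1 count in any library. Of the markers of platelets, which hold factor V, factor XIII and thrombospondin, Ppbp, Gp9, Gp5 and Tubb1 had at most 1 count. The platelet list summed to 316 to 802 CPM in control mice and 211 to 278 CPM in diseased-BWF1 mice, almost all of it Pf4. Pf4 is also expressed by macrophages, and it was lower in diseased-BWF1 mice by DESeq2 (log2 fold change -1.16 in edgeR, DESeq2 adjusted p = 0.0122) but not by edgeR (adjusted p = 0.176). Summed markers of B cells, T cells, neutrophils, mast cells, eosinophils, mesothelial, endothelial, erythroid and liver cells stayed at or below 9.42 CPM in every library. Summed dendritic cell markers were at 44.4 to 85.1 CPM in control mice and 9.23 to 18.1 CPM in diseased-BWF1 mice. Most of the control level was Cd209a, which both tools called lower. Early response genes, which rise quickly when cells are handled, summed to 1150, 1190 and 981 CPM in control mice 1 to 3 and to 2920, 2450 and 1170 CPM in diseased-BWF1 mice 1 to 3. Of the 12 tested early response genes, 0 were called with edgeR and 6 had an unadjusted p under 0.05. DESeq2 called 5 of them higher (Fos, Junb, Ier2, Nr4a1 and Zfp36), against 1.27% of all tested genes, and the groups of Zfp36 overlapped. The sums include Dusp1, which was not called by either tool and whose groups overlapped. It was at 478, 349 and 175 CPM in control mice 1 to 3. In diseased-BWF1 mice 1 to 3 it was at 962, 1030 and 149 CPM.

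In diseased-BWF1 PMs, Thbs1, F7 and F10 were higher in every mouse than in any control mouse, and Plau was lower in every mouse. No gene of the 10 was called with edgeR's quasi-likelihood test, which required a Benjamini-Hochberg adjusted p under 0.05 over all 10505 tested genes and a change of at least 1.5-fold. That test called 1.22% of the tested genes in either direction. An unadjusted p under 0.05 was found for 4 of the 10 genes (F7, Thbs1, F10 and Plau), against 13.2% of all tested genes. With DESeq2 at the same thresholds, Thbs1 and F7 were called higher, where DESeq2 called 1.27% of all tested genes higher, and no gene of the 10 was called lower, against a background of 2.28%. Groups did not overlap for 3 genes in the higher direction and 1 gene in the lower direction, while 9.81% and 11.1% of all tested genes had such groups. The 10 genes were chosen with earlier results of these data known, so these counts are not independent evidence about them as a set. The median log2 fold change was 0.02 over the 10 genes and 0.01 over all tested genes, with 5 genes above 0 and 5 below. All 10 genes passed the low-count filter. Since whole sorted populations were sequenced, a change in the share of cells that express a gene and a change in RNA per cell cannot be told apart.

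**Figure D1:**
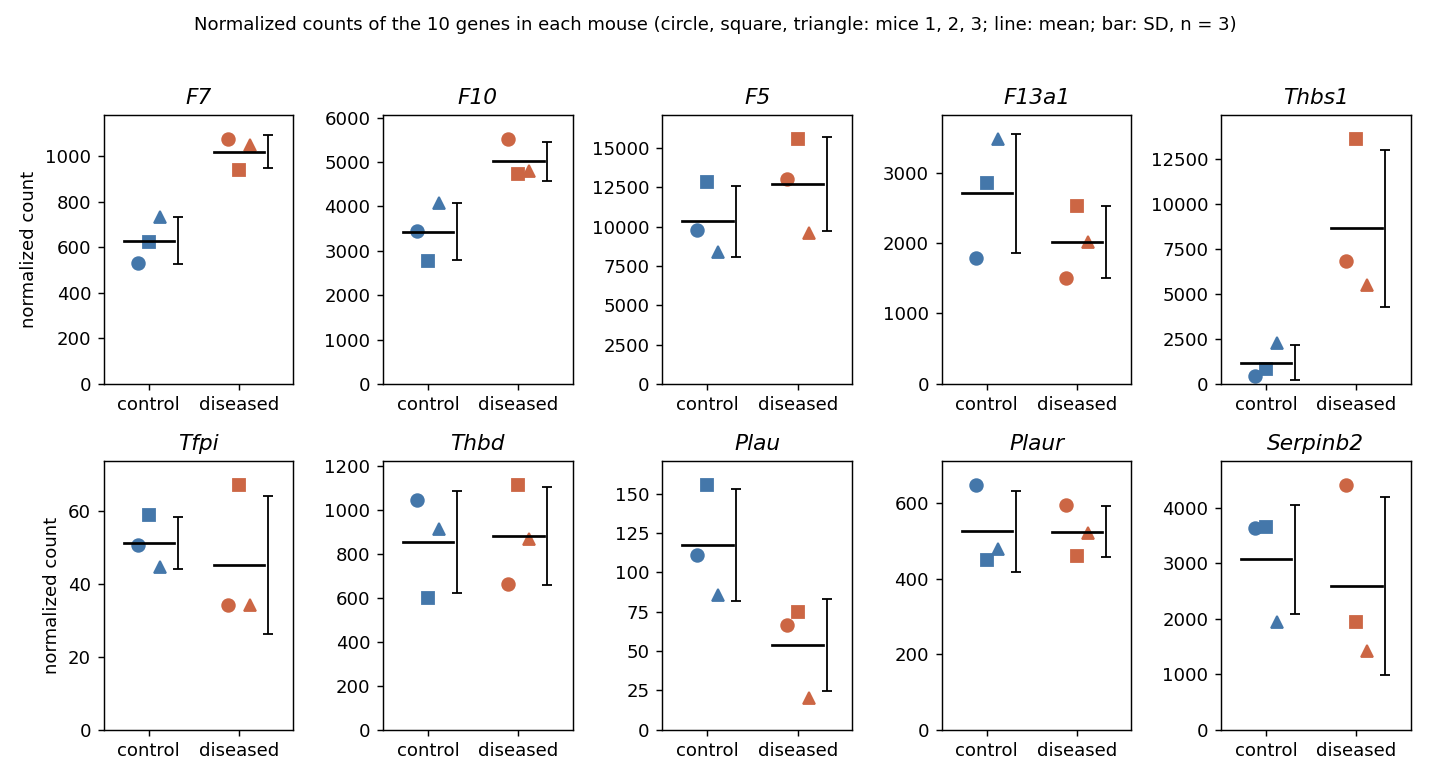
Normalized counts (vertical axes, each starting at 0) of the 10 genes in 3 control mice (blue) and 3 diseased-BWF1 mice (red), with 1 symbol per mouse, the mean as a line and the SD as a bar. Diseased-BWF1 mice lie above all control mice for F7, F10 and Thbs1 and below all of them for Plau, and the groups overlap for the other 6 genes.

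The promoters of F7 and F10 are shown because these neighbouring genes were both higher in diseased-BWF1 PMs. Those of Serpinb2 and Plaur, whose groups overlapped, are shown for a motif. Among the genes with a window, only these hold a site of the kind that dimers of Fos and Jun proteins bind. Windows run from 250 bases before to 50 bases after a RefSeq transcript start (GRCm38.p6), on the plus strand for each of these 4 genes. The F7 window is chr8:13025784-13026083, the F10 window is chr8:13037058-13037357, the Serpinb2 window is chr1:107511173-107511472, the first of 2 for this gene, and the Plaur window is chr7:24462233-24462532. Capitals mark exact matches, on either strand, to TGANTCA, a letter pattern of Fos and Jun dimers, to GATAA, that of Gata6 and its relatives, to GAGGAA, that of PU.1 and other Ets proteins, to GGGCGG, that of Sp1 and its relatives, or to the promoter element TATAAA.
F7: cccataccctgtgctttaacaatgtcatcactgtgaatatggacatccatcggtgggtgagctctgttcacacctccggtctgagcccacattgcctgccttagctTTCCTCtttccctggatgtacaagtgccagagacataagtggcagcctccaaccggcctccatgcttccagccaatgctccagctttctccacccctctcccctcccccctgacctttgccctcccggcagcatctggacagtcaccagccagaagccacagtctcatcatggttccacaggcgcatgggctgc
F10: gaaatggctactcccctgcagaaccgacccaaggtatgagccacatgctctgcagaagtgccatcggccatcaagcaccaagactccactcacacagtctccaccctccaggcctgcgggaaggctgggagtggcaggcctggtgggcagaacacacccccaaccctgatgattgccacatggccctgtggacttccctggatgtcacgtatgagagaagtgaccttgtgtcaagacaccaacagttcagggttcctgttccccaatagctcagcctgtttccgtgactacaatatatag
Serpinb2: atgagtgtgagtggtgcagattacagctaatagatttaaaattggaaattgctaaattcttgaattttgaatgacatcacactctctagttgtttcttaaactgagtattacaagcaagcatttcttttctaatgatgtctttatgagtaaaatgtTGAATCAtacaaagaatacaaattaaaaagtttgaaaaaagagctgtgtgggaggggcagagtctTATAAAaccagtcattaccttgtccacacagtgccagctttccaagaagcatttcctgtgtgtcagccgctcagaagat
Plaur: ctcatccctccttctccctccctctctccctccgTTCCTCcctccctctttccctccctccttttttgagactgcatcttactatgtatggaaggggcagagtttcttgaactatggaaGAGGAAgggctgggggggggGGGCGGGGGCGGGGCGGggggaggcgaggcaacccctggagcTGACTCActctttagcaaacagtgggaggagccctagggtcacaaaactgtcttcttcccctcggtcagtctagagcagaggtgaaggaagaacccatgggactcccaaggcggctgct
The F7 window held 1 GAGGAA, on the reverse strand 144 bases before the start, and the F10 window held none of the 5 motifs. In Serpinb2, TGAATCA lay 94 bases and TATAAA 29 bases before the start. In Plaur, TGACTCA lay 69 bases before the start, beside 2 matches to GAGGAA and 3 partly overlapping matches to GGGCGG. Among 32851 RefSeq promoter windows of this length, 7.81% held TGANTCA, 25.4% GATAA, 28.3% GAGGAA, 35.7% GGGCGG and 13.6% TATAAA. Such a match describes letters and is not evidence of binding. Windows were found for 7 of the 10 genes, and Thbs1, Thbd and Plau had none in the table used.

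F7 encodes factor VII, the protease that pairs with tissue factor to start clotting. The gene lies on chromosome 8 from 13025506 to 13035809. Its normalized counts were 529.6, 623 and 734 in control mice 1 to 3 and 1073, 936 and 1047 in diseased-BWF1 mice 1 to 3. Every diseased-BWF1 mouse was above every control mouse, and the lowest of them was 1.28 times the highest control. Group means were 629 ± 102 and 1019 ± 72.6 normalized counts (SD, n = 3), a 1.61-fold difference (95% interval 1.25 to 2.08). On the log2 scale this was 0.69 with a standard error of 0.16 and an adjusted p of 0.106 in edgeR, against 0.00377 in DESeq2. The call by DESeq2 was lost without control mouse 1 (adjusted p = 0.0533), control mouse 2 (0.064), diseased-BWF1 mouse 1 (0.0876) or diseased-BWF1 mouse 3 (0.0617). All F7 counts came from a single transcript record.

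F10 encodes factor X, which the tissue factor and factor VII complex activates. It starts 1498 bases after the end of F7, at chromosome 8 from 13037308 to 13056676. Control mice 1 to 3 had 3451, 2774 and 4070.2 normalized counts, and diseased-BWF1 mice 1 to 3 had 5514, 4731 and 4803. The groups did not overlap, and the lowest diseased-BWF1 mouse was 1.16 times the highest control. Means were 3432 ± 648 and 5016 ± 433 (SD, n = 3), a 1.45-fold difference (95% interval 1.09 to 1.95), which is below the 1.5-fold threshold. On the log2 scale this was 0.54 with a standard error of 0.18, and the adjusted p was 0.254 with edgeR and 0.0665 with DESeq2. Without control mouse 3, which had the highest control level, the log2 fold change was 0.69 in both tools and DESeq2 called F10 (adjusted p = 0.0016). For both F7 and F10 the exact two-sided permutation test gave 0.1, the smallest p that 3 mice against 3 allow. The record NM_001242368.1 held 95.4% to 97.2% of F10 counts in the 6 libraries.

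**Figure D2:**
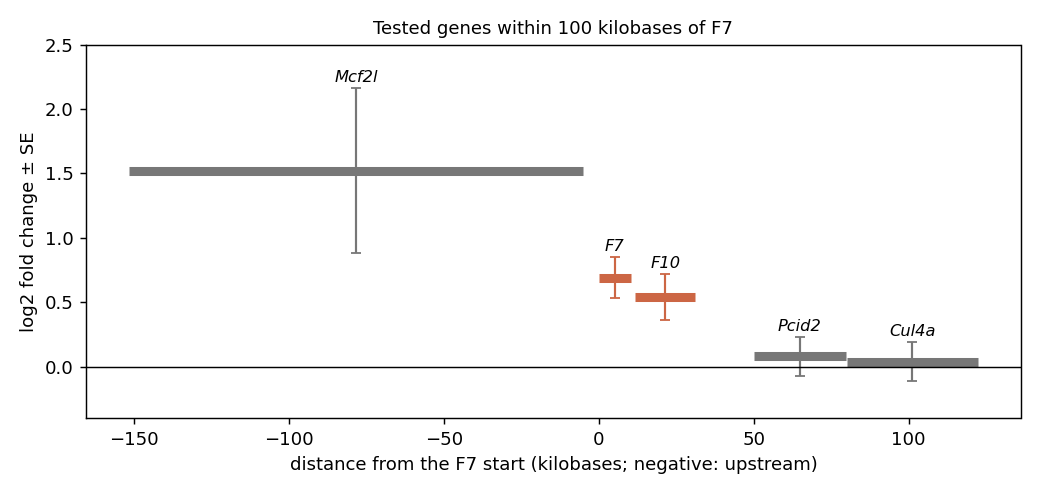
Log2 fold changes, diseased-BWF1 over control, with their standard errors (vertical axis) for tested genes near F7, drawn at their extent in kilobases from the F7 start (horizontal axis). F7 at 0.69 and F10 at 0.54 lie between Mcf2l at 1.52, whose standard error is 0.64, and Pcid2 and Cul4a near 0.

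The genes on either side of this pair did not form a common pattern. Upstream of F7, Mcf2l had a log2 fold change of 1.52 with a standard error of 0.64, overlapping groups and an edgeR adjusted p of 0.368. Downstream of F10, Pcid2 was at 0.08 and Cul4a at 0.04. Proz, the gene of the clotting regulator protein Z between F10 and Pcid2, did not pass the low-count filter, with 3 to 8 counts in control mice and 4 to 9 in diseased-BWF1 mice.

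F5 encodes factor V, the cofactor of activated factor X. It had the most counts of the 10 genes and ranked 23 among all 10505 tested genes by counts. Normalized counts were 9814, 12836 and 8389.6 in control mice 1 to 3 and 13019, 15558 and 9588 in diseased-BWF1 mice 1 to 3. Diseased-BWF1 mouse 2 was the highest of all, but diseased-BWF1 mouse 3 lay below control mice 1 and 2. Means were 10347 ± 2271 and 12722 ± 2996 (SD, n = 3), with a log2 fold change of 0.29 (standard error 0.24, 95% interval -0.26 to 0.85, edgeR adjusted p = 0.659). F5 lies on chromosome 1 from 164151835 to 164220277. The nearest tested gene that does not overlap it, Selp, ends 1808 bases before it and was at -0.18 with overlapping groups. The predicted gene Gm16548 overlaps the start of F5, and reads from the overlap may be shared between them.

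F13a1 encodes the A subunit of factor XIII, the transglutaminase that cross-links fibrin, and macrophages are a known source of it. It lies on chromosome 13 from 36867178 to 37050244. Control mice 1 to 3 had 1794, 2849.98 and 3474 normalized counts, and diseased-BWF1 mice 1 to 3 had 1499.7, 2524 and 2011. The lowest value of each group belonged to mouse 1, and the groups overlapped. Means were 2706 ± 849 and 2012 ± 512 (SD, n = 3), with a log2 fold change of -0.44 (standard error 0.29, 95% interval -1.11 to 0.23, edgeR adjusted p = 0.577).

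Thbs1 showed the widest difference between the groups among the 10 genes, with a wide spread within each group. It encodes thrombospondin 1, a matrix protein that platelets and activated macrophages release, which binds fibrinogen and plasminogen and can activate latent TGF-beta. The gene lies on chromosome 2 from 118111876 to 118127133. Normalized counts were 448, 809.9 and 2292 in control mice 1 to 3 and 6814, 13597 and 5505 in diseased-BWF1 mice 1 to 3. Control mouse 3 had 5.12 times the level of control mouse 1, yet the lowest diseased-BWF1 mouse was 2.4 times this highest control. Means were 1183 ± 977 and 8638 ± 4344 (SD, n = 3), and the fitted difference was 7.25-fold with a 95% interval of 2.53 to 20.8. On the log2 scale this was 2.86 with a standard error of 0.65. Its adjusted p was 0.103 in edgeR and 0.0141 in DESeq2, and the exact permutation test gave the minimum of 0.1.

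The call of Thbs1 depended on the fit and on single mice, whereas its direction did not in the alternatives run. Without the low-count filter edgeR called it (adjusted p = 0.0163), as did a fit with age as a covariate (0.0441). Leaving out control mouse 3 raised the log2 fold change to 3.78 (edgeR adjusted p = 0.0599, DESeq2 adjusted p = 4.05e-07), and leaving out diseased-BWF1 mouse 2 lowered it to 2.38. DESeq2 lost the call without control mouse 2 (adjusted p = 0.105), diseased-BWF1 mouse 1 (0.0825) or diseased-BWF1 mouse 2 (0.18). Both RefSeq records of Thbs1 carried counts. The share of NM_001313914.1 was 39.0%, 24.6% and 23.5% in control mice 1 to 3 and 40.4%, 34.9% and 33.7% in diseased-BWF1 mice 1 to 3, with overlapping groups, so that both records were higher in every diseased-BWF1 mouse. The summed level of the early response genes was also higher in diseased-BWF1 mice 1 and 2 than in any control mouse. Diseased-BWF1 mouse 1 had the highest summed early response level and mouse 2 the highest Thbs1. Mouse 3 was the lowest diseased-BWF1 mouse in both. The part of the early response genes in the results for Thbs1, F7 and F10 was not tested. Platelet markers other than Pf4 had at most 12 counts each in any of the 6 libraries, and the part of platelet RNA in the Thbs1 counts was not tested.

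**Figure D3:**
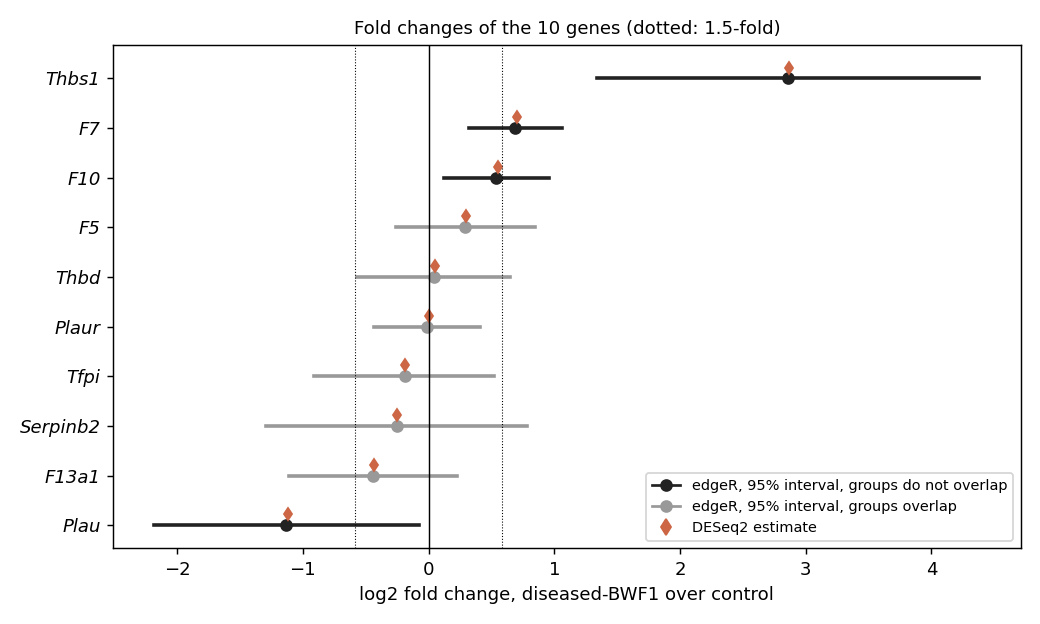
Log2 fold changes (horizontal axis), diseased-BWF1 over control, of the 10 genes, as edgeR estimates with 95% intervals (circles, black where the groups do not overlap and grey where they do) and as DESeq2 estimates (diamonds). Thbs1 at 2.86, F7 at 0.69, F10 at 0.54 and Plau at -1.13 have intervals that leave out 0, and the dotted lines mark 1.5-fold.

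The anticoagulant genes Tfpi and Thbd did not separate the groups. Thbd encodes thrombomodulin, which binds thrombin and turns it towards activation of protein C, and lies on chromosome 2 from 148404471 to 148408188. Its normalized counts were 1048, 598 and 914 in control mice 1 to 3 and 665, 1114 and 868 in diseased-BWF1 mice 1 to 3. The 4 middle values came from both groups. The log2 fold change was 0.04 (standard error 0.26, 95% interval -0.57 to 0.65, edgeR adjusted p = 0.969), so that differences of up to about 1.57-fold were inside the interval. Tfpi encodes tissue factor pathway inhibitor, which blocks factor X and the complex of tissue factor with factor VII, and lies on chromosome 2 from 84432855 to 84476775. It was the lowest of the 10 genes, with 50.5, 58.7 and 44.6 normalized counts in control mice 1 to 3 and 34.1, 67.0 and 34.3 in diseased-BWF1 mice 1 to 3. Diseased-BWF1 mice held both the lowest and the highest value. The log2 fold change was -0.19 (standard error 0.31, 95% interval -0.91 to 0.52, edgeR adjusted p = 0.835).

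The transcript records of Tfpi divided the mice by number and not by group. NM_001177320.1 had 38, 42 and 5 counts in control mice 1 to 3 and 23, 37 and 2 in diseased-BWF1 mice 1 to 3. NM_001177319.1 had 26 counts in control mouse 3 and 24 in diseased-BWF1 mouse 3, and 0 in the other 4 libraries. Both records have 705 coding bases and share every exon except the first, non-coding exon, which is 35 bases long in the former and 73 bases long in the latter. Sequenced reads from the shared exons cannot tell these records apart, and how such reads were assigned is not given in the sources used here. Mice 3 differed in age from the other mice of their groups, being 30 against 33 weeks in control mice and 34 against 31 weeks in diseased-BWF1 mice, in opposite directions. The curated record NM_011576.1, with 918 coding bases and its own last 2 exons, had 4 counts in diseased-BWF1 mouse 2 and 0 in the other libraries. These values are a description of the records and were not tested.

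Of the fibrinolysis genes Plau, Plaur and Serpinb2, only Plau had groups that did not overlap. Plau encodes urokinase, the protease that activates plasminogen on migrating cells, and lies on chromosome 14 from 20836662 to 20843388. It had 110.9, 156 and 85.7 normalized counts in control mice 1 to 3 and 66.4, 75.2 and 20.2 in diseased-BWF1 mice 1 to 3. Each diseased-BWF1 mouse was below each control mouse, with the lowest control at 1.14 times the highest diseased-BWF1 mouse. Means were 117 ± 35.4 and 53.9 ± 29.5 (SD, n = 3), and the log2 fold change was -1.13 with a standard error of 0.45 and a 95% interval of -2.18 to -0.08. The adjusted p was 0.341 with edgeR and 0.262 with DESeq2, and the exact permutation test gave 0.1. Diseased-BWF1 mouse 3 had 20 counts in all, and without it the log2 fold change was -0.74 (edgeR adjusted p = 0.401).

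Plaur encodes the urokinase receptor and lies on chromosome 7 from 24460937 to 24475970. Normalized counts were 648, 448 and 479 in control mice 1 to 3 and 595, 459 and 519.9 in diseased-BWF1 mice 1 to 3. The ranges of the groups lay almost on top of each other, with means of 525 ± 108 and 525 ± 68.3 (SD, n = 3). The log2 fold change was -0.01 (standard error 0.18, 95% interval -0.43 to 0.41, edgeR adjusted p = 0.992), and the 95% interval of the ratio was 0.742 to 1.33.

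Serpinb2 encodes plasminogen activator inhibitor 2, an abundant macrophage serpin that inhibits urokinase and remains largely inside the cell. It lies on chromosome 1 from 107500892 to 107525600. Control mice 1 to 3 had 3630.3, 3651 and 1941 normalized counts, and diseased-BWF1 mice 1 to 3 had 4408, 1942 and 1419.7. The highest and the lowest value both belonged to diseased-BWF1 mice, whose highest level was 3.1 times the lowest. Means were 3074 ± 981 and 2590 ± 1596 (SD, n = 3), with a log2 fold change of -0.25 (standard error 0.44, 95% interval -1.29 to 0.78, edgeR adjusted p = 0.854). The record NM_001174170.1 held 41.1%, 43.6% and 44.4% of Serpinb2 counts in control mice 1 to 3 and 47.8%, 36.7% and 28.7% in diseased-BWF1 mice 1 to 3. Among diseased-BWF1 mice this share was highest in the mouse with the most Serpinb2 and lowest in the mouse with the least. The serpin genes next to it, Serpinb10 and Serpinb8, had log2 fold changes of -0.32 and -0.52 and edgeR adjusted p values of 0.58 and 0.182.

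Levels of different genes were compared as normalized counts per kilobase of the transcript record with the most counts. In control mice F10 was the highest at 1803 ± 341 per kilobase, followed by Serpinb2 at 1540.0 ± 492 and F5 at 1393 ± 306, and the spreads of these 3 genes overlapped. F13a1 was at 685 ± 215, Plaur at 349 ± 71.4, F7 at 338 ± 55.0, Thbd at 229 ± 62.2 and Thbs1 at 202 ± 167. The ranges of mean ± SD of Plaur, F7, Thbd and Thbs1 all overlapped, yet Plaur and F7 each lay above Thbd in every control mouse. Plau at 50.1 ± 15.1 and Tfpi at 14.3 ± 1.99 were the lowest, and in each control mouse Plau lay below Thbs1 and above Tfpi. In diseased-BWF1 mice F10 was again the highest at 2636 ± 228, and F5 was at 1712 ± 403. Thbs1 moved from rank 8 to rank 3 at 1477 ± 743 per kilobase, a level that overlapped those of F5 and of Serpinb2, at 1298 ± 799.6. F7 was at 548 ± 39.0 and F13a1, whose range overlapped it, at 509 ± 130. Plaur was at 348 ± 45.3 and Thbd at 237 ± 60.4, and Plau at 23.0 ± 12.6 and Tfpi at 12.6 ± 5.30 remained the lowest (SD, n = 3 throughout). In diseased-BWF1 mouse 3 the level of Plau was below that of Tfpi. Together the 10 genes held 0.565%, 0.632% and 0.581% of the counts on genes in control mice 1 to 3 and 0.911%, 1.07% and 0.683% in diseased-BWF1 mice 1 to 3. F5 held the largest part of this share in every library.

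**Figure D4:**
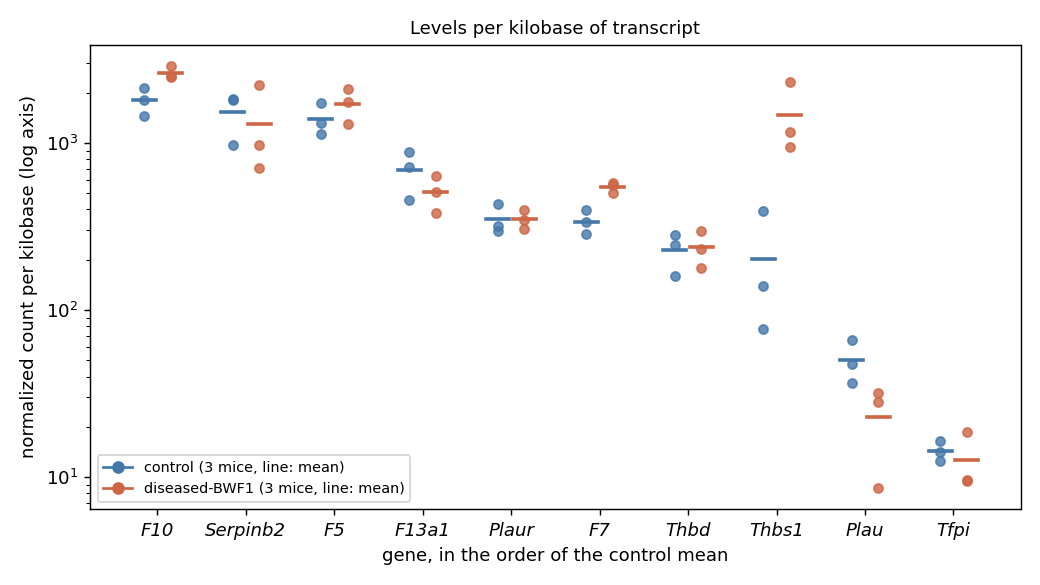
Normalized counts per kilobase of transcript (vertical axis, log scale) of the 10 genes, ordered by the control mean, in 3 control mice (blue) and 3 diseased-BWF1 mice (red), with the mean as a line. F10, Serpinb2 and F5 were the highest in control mice, and Thbs1 reached their range in diseased-BWF1 mice.

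Most other genes of the clotting and fibrinolytic systems had few or no counts in these cells. Of 62 further genes on 3 lists, 23 passed the low-count filter and 20 had 0 counts in every library. Those at 0 included the fibrinogen genes Fga, Fgb and Fgg, plasminogen (Plg), tissue plasminogen activator (Plat) and protein C (Proc). Prothrombin (F2) had 1 count in all libraries together. Tissue factor (F3), the partner of factor VII, had 6, 5 and 0 counts in control mice 1 to 3 and 2, 3 and 3 in diseased-BWF1 mice 1 to 3, so that a difference was not detectable at this depth. Of the 21 genes of the coagulation cascade list, 4 were tested and 0 were called by edgeR or DESeq2, and 0 had an unadjusted edgeR p under 0.05, with a median log2 fold change of -0.05. Of the 16 anticoagulant genes, 3 were tested and 0 were called by either tool, with a median of -0.38. Of these 3, 1 had an unadjusted edgeR p under 0.05, beside 1385 of all 10505 tested genes. Among these 3 tested genes only Pros1, which encodes the protein C cofactor protein S and was named here after its values were seen, had groups that did not overlap. Its normalized counts were 3356, 3218 and 3224 in control mice 1 to 3 and 2519.6, 2776 and 2270.2 in diseased-BWF1 mice 1 to 3, which is -0.38 on the log2 scale (standard error 0.13, edgeR adjusted p = 0.284, DESeq2 adjusted p = 0.0875).

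The fibrinolysis list, which also holds thrombospondin relatives and receptors, had 16 of 25 genes tested and a median log2 fold change of 0.19, against 0.01 over all tested genes. edgeR called 1 gene higher and 1 lower, and DESeq2 called 4 higher and 1 lower, in this list. Of all tested genes, edgeR called 1.22% in either direction, and DESeq2 called 1.27% higher and 2.28% lower. The list was written with the study's changed genes known and is not independent evidence of a direction. Itga5, the alpha chain of the fibronectin receptor, rose from 114, 117 and 109 normalized counts in control mice 1 to 3 to 239.8, 285 and 436 in diseased-BWF1 mice 1 to 3. Its log2 fold change was 1.49 (standard error 0.23, edgeR adjusted p = 0.0363, DESeq2 adjusted p = 9.06e-06). Mrc1, the mannose receptor, which clears tissue plasminogen activator among other ligands, fell from 2250.0, 2210.1 and 2231 to 1034, 843 and 1309. Its log2 fold change was -1.08 (standard error 0.18, edgeR adjusted p = 0.044, DESeq2 adjusted p = 4.06e-06). Each of these calls by edgeR was made in 1 of the 6 fits that left out a mouse, and each call by DESeq2 in 6 of 6.

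Tgm2, a tissue transglutaminase that like factor XIII cross-links proteins, was called higher by DESeq2 alone. It had 132, 122 and 118 normalized counts in control mice 1 to 3 and 270.2, 199 and 382 in diseased-BWF1 mice 1 to 3, and its log2 fold change was 1.19 (standard error 0.23, edgeR adjusted p = 0.0718, DESeq2 adjusted p = 0.00144). Itgb5, the beta chain of a vitronectin receptor, had 2.48, 8.24 and 9.14 normalized counts in control mice 1 to 3 and 31.3, 15.2 and 194 in diseased-BWF1 mice 1 to 3. Diseased-BWF1 mouse 3 stood far above the rest. The log2 fold change of 3.62 carried a standard error of 1.06, with a DESeq2 adjusted p of 0.00407 and an edgeR adjusted p of 0.198. Without diseased-BWF1 mouse 3 it was 1.83 and the DESeq2 call was lost (adjusted p = 0.424).

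Klf4 and Anxa2 also had groups that did not overlap and differed by more than 1.5-fold, without being called. Klf4, a transcription factor that raises thrombomodulin in endothelial cells, had 468, 454 and 407 normalized counts in control mice 1 to 3 and 768, 497 and 835 in diseased-BWF1 mice 1 to 3 (log2 fold change 0.65, edgeR adjusted p = 0.224). Anxa2, a plasminogen receptor on cell surfaces, had 741, 806 and 529 and then 511, 345 and 509.9 (log2 fold change -0.61, edgeR adjusted p = 0.284). Over the 23 tested genes of the 3 lists, groups did not overlap for 8 genes in the higher and 4 in the lower direction, beside 9.81% and 11.1% of all tested genes, and the median log2 fold change was 0.15.

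**Figure D5:**
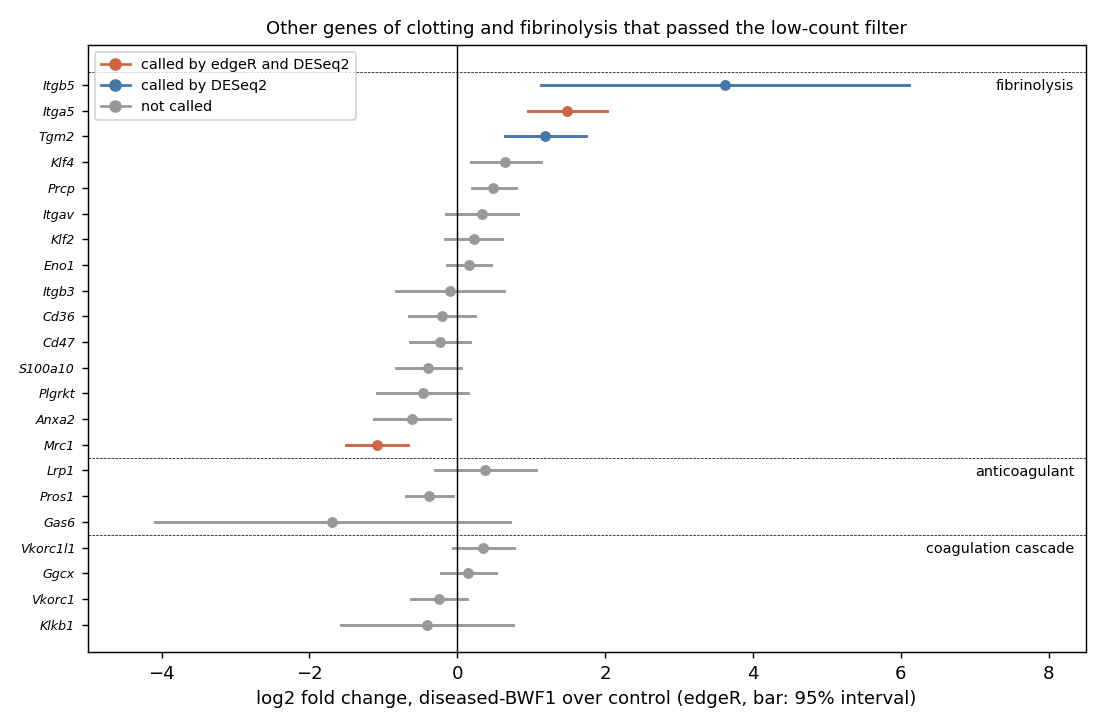
Log2 fold changes with 95% intervals (horizontal axis), diseased-BWF1 over control, from edgeR for genes of the 3 further lists that passed the low-count filter. Itga5 at 1.49 and Mrc1 at -1.08 were called by edgeR and DESeq2 (red), Itgb5 and Tgm2 by DESeq2 (blue), and the 18 genes in grey by neither.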

How the data were processed

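The authors sorted PMs from 6 female mice, made stranded mRNA libraries and sequenced paired-end reads on a MiSeq. The deposited values are estimated counts per RefSeq transcript record, as whole numbers without normalization, in 1 file per mouse. The submitters' processing notes name Salmon 0.8.0, DESeq2 and the build GRCm38.p6, with no role or order, and how reads shared by records were assigned is not given in the sources used here. Estimated counts can move between the records of a gene, so counts were summed per gene symbol. The RefSeq gene table of GRCm38.p6 gave a gene to 45754 of 107193 records by accession and version and to 40712 by accession alone. The remaining 20727, which took 6.98% to 10.9% of the counts, were not used. Groups were taken from the sample labels.

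Tools were edgeR 4.0.16, limma 3.58.1 and DESeq2 1.42.0 in R 4.3.3, and scipy 1.17.1 in Python 3.11.15. edgeR's quasi-likelihood test (filterByExpr, TMM, no covariate, Benjamini-Hochberg adjustment) was run over 10505 genes, with a common dispersion of 0.0543. Calls needed adjusted p under 0.05 and a 1.5-fold change, as in the study's methods. Normalized counts used DESeq2 size factors (0.875 to 1.21). Single genes also had an exact two-sided permutation test of the means. Levels per kilobase divided normalized counts by the annotated length of the main record. Libraries were checked for duplicates, and the closest pair still differed by 9.57 times sampling noise. The code was tested on simulated data.

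The 10 genes, the 3 lists of further genes, the cell type marker lists and the early response list were chosen with earlier results of these data known. All 10 genes are named. From the further lists a gene was named if called by edgeR or DESeq2, or if its groups did not overlap and it differed by at least 1.5-fold, and some results that this rule covers are not reported here. The alternatives were DESeq2, other scaling (RLE, upper quartile), no low-count filter, a minimum of 10 counts per library, a replicate block, an age covariate, limma-voom, curated mRNA records alone, no fold threshold and each mouse left out. DESeq2 with each mouse left out was added after seeing the data.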

Additional observations from a re-analysis of the deposited data

How the results depend on the processing

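edgeR called 42 genes higher and 86 lower. These counts were 133 and 239 with DESeq2, 89 and 170 without the low-count filter, 27 and 57 with at least 10 counts in every library, and 9 and 7 with curated mRNA records alone. Age as a covariate gave 34 higher and 53 lower. Leaving out 1 mouse gave 11 to 22 higher and 10 to 29 lower with edgeR. DESeq2 without control mice 1, 2 and 3 in turn gave 108, 94 and 119 higher and 149, 159 and 186 lower, and without diseased-BWF1 mice 1, 2 and 3 in turn it gave 94, 87 and 95 higher and 173, 192 and 199 lower.

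Of the 10 genes, 0 were called higher with edgeR, 2 with DESeq2 (Thbs1 and F7), 1 without the low-count filter (Thbs1) and 1 with age as a covariate (Thbs1). DESeq2 without 1 mouse called 0 to 3, and the edgeR fits without 1 mouse called 0. No setting called any of them lower. F5, F7, F10, F13a1, Thbs1, Plau and Tfpi kept their direction in all 21 alternatives run for each gene. The sign of the other 3 genes, each within its error of 0, depended on the fit. The log2 fold change of Plaur was 0.0 with limma-voom, 0.01 with curated mRNA records alone, and -0.11 to 0.16 without 1 mouse in edgeR (in DESeq2, 0.18 without control mouse 1 and 0.08 without diseased-BWF1 mouse 2). That of Serpinb2 ran from -0.88 to 0.04 without 1 mouse (0.05 in DESeq2 without diseased-BWF1 mouse 3), and that of Thbd from -0.16 to 0.21 (-0.15 in DESeq2 without control mouse 2). The cause was not tested.

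Same-numbered mice are different animals. The deviations of same-numbered mice from their group means correlated at 0.117, 0.006 and 0.157, against -0.144 to 0.057 for mice of different number. The values for mice 1 and for mice 3 were thus the highest, while control mouse 2 correlated best with diseased-BWF1 mouse 1 (0.057). The labels give no pairing, and the main fit did not take the numbers as pairs. Whether mice of the same number were processed together is not stated in the labels. With the replicate number as a block, edgeR called 18 genes higher and 20 lower and 0 of the 10 genes, and the log2 fold change of Plaur was 0.0.

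With 3 mice a group the exact test cannot go below 0.1. At 3629901 to 5003360 counts per library, Tfpi, F3 and other genes with few counts limit what can be seen, and intervals as wide as that of Serpinb2 hold changes of over 1.5-fold in either direction.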
